A study of Mus musculus with 12 samples.

Results

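NR5A1(+) cells from XY gonads kept in culture were compared with NR5A1(+) cells from XY gonads at E11.5. Members of the comparison are the genes with at least 1 TPM (transcript abundance scaled for gene length and to the same total in every library) in at least 2 of its 5 libraries, which gave 15373 of the 24411 symbols listed. The series concerns an iron chelator and XY fetal gonads, and both groups compared here are labelled without it. Cultured XY gonads given 150 uM of the chelator (n = 3) are not compared here. Their libraries enter the statistical fit of all 12 libraries and so help to set the spread behind the p-values. The cultured group is the control XY group (n = 3): gonads of E10.8 mouse embryos, with the aorta, mesonephros and mesenchyme left on, were held on filters for 19.2 h in DMEM containing 10% horse serum. The E11.5 XY group (n = 2) is labelled wild type, and the genotype Nr5a1-hCD271, a transgene that puts human CD271 on the surface of cells that express Nr5a1, stands on both groups. The labels repeat the culture text for the E11.5 group, and they do not settle how its gonads were collected or whether they were cultured. Control XX in culture (n = 2) and E11.5 XX (n = 2) served as a second pair that shares no library with the XY pair. Neither the isolation of the NR5A1(+) cells nor the origin of the replicates from separate embryos is described in the labels. The p-values therefore reflect only how these libraries vary, which may be technical variation. The stage at collection differs, E10.8 against E11.5, but counted in hours 19.2 h of culture brings E10.8 gonads close to E11.5. Stage at collection, handling and culture, as far as they differ between the groups, differ together and cannot be told apart.

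NR5A1 is the nuclear receptor of gonadal and adrenal somatic cells, and XY gonads around E11.5 are at the stage at which Sry starts testis development. Cells make cholesterol from acetyl-CoA in a chain of enzymes whose genes are driven by SREBP2 when membrane sterol is low, with SREBP1 acting more on fatty acid synthesis. Lysosomal genes share a driver in the MiT-TFE factors TFEB and TFE3, which are held back by nutrient signalling, and genes of amino acid supply are driven by ATF4 in the integrated stress response. These pathways are described first below, followed by vessels and matrix, other cell types, gonadal factors and the cell cycle.

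The labelled cell type was checked against its markers: Nr5a1, Wt1, Gata4, Lhx9 and Emx2 stood between 78.5 and 213 TPM in all 5 libraries. Depth cannot be read from TPM. Replicates 1 and 2 of the cultured group lay close to each other, with a median absolute log2 difference of 0.07 over 4928 genes of at least 20 TPM. Replicate 3 was 0.18 from replicate 1 and 0.19 from replicate 2, and it was as near to the E11.5 libraries, at 0.18 from each. The 2 E11.5 XY libraries were 0.14 apart. The RNA of RNase P, Rpph1, took 15.29% to 20.32% of TPM in culture against 12.02% to 12.18% at E11.5, and since TPM is a share this lowers other genes. Olfactory and vomeronasal receptor genes, which gonadal cells are not known for, summed to 45.5, 103 and 432 TPM in culture and 324 and 852 TPM at E11.5, against at most 30.6 TPM in an XX library.

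In the fit of all members, 422 genes were higher in culture (2.75%) and 491 were lower (3.19%), at an adjusted p below 0.05. Every p given for a gene is from limma on log2(TPM + 1) with Benjamini-Hochberg adjustment, and each change is a log2 difference ± SE on that scale, culture minus E11.5. The median change of all members was -0.11. The cultured libraries of each of the 913 called genes lay wholly above or wholly below both E11.5 libraries, as did those of 6335 of all 15373 members (41.2%). When cultured replicates 1 and 2 were averaged into 1 library, 139 genes were higher (0.904%) and 45 lower (0.293%), all of them among the 913. Averaging here and below also merged replicates 1 and 2 of the chelator group, which enters the same fit. Leaving out each library gave 183 to 473 higher and 88 to 994 lower genes. The counts were 183 and 106 without E11.5 replicate 1, 313 and 198 without E11.5 replicate 2, 193 and 90 without cultured replicate 1, 191 and 88 without cultured replicate 2, and 473 and 994 without cultured replicate 3. Higher genes made up 46.2% of calls as fitted, 59.3% after median-of-ratios scaling, 58.7% after quantile normalization and 68.3% without the 50 most abundant genes. The last of these moved the median of all members to -0.00, and changes near that size are not read as a direction here. A call is termed stable below if it held in 9 alternatives: the averaging, each of the 5 libraries left out and the 3 scalings. The 9 do not include the fit of only the libraries compared (237 higher and 144 lower) or that without the variance trend (316 and 375). Of the calls, 107 higher and 36 lower were stable.

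**Figure D1:**
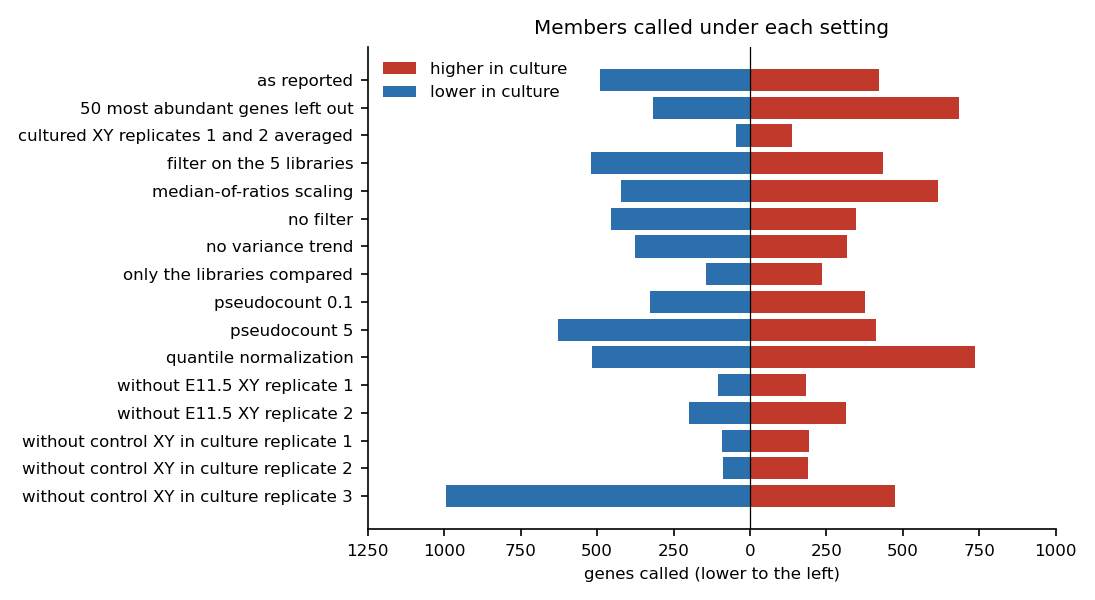
Number of members called higher (right, red) and lower (left, blue) in culture under each setting of the XY comparison, the replicate block not drawn. The bars run from 45 lower genes with cultured replicates 1 and 2 averaged to 994 without cultured replicate 3, and the higher genes from 139 to 737.

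Genes of cholesterol synthesis rose together. Of the 21 enzymes listed, all were members, 19 rose and 0 fell, with a median change of 1.40 beside -0.11 for all members, and 18 of the 19 calls were stable. Msmo1, the sterol C4-methyl oxidase, stood at 264, 273 and 284 TPM in culture and 43.8 and 56.7 TPM at E11.5. The 5 values form 2 groups that do not overlap, and Msmo1 rose by 2.43 ± 0.11 (adjusted p = 2.08e-07), which is 5.40-fold. Fdps, which makes farnesyl diphosphate for sterols and for protein prenylation, was at 429.7, 442 and 449 TPM in culture and 111 and 102 TPM at E11.5 and rose by 2.04 ± 0.09 (adjusted p = 2.08e-07). Lss folds squalene epoxide into the first sterol; it had 46.2, 46.8 and 49.4 TPM in culture and 10.85 and 11.3 TPM at E11.5. Its increase of 2.01 ± 0.11 had an adjusted p of 1.55e-06. Cyp51, the lanosterol demethylase, had 111, 110.3 and 125 TPM in culture and 43.2 and 43.0 TPM at E11.5, and rose by 1.40 ± 0.09 (adjusted p = 3.97e-06). In all of these the 3 cultured libraries stood near each other, replicate 3 included. Averaging the replicates ended the call of Hsd17b7 (adjusted p 0.011, then 0.0755). Lbr and Ebp, with changes of -0.03 ± 0.17 and 0.30 ± 0.25, did not pass.

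Of the 11 genes for SREBP control and LDL uptake, 5 rose and 0 fell (median 0.52), with 3 called without cultured replicate 1 or without E11.5 replicate 2. Insig1, which retains SREBPs in the endoplasmic reticulum and is itself an SREBP target, had 115, 117 and 108 TPM in culture and 36.5 and 36.6 TPM at E11.5 and rose by 1.60 ± 0.14 (adjusted p = 8.1e-05). Srebf2, the gene of SREBP2, was at 150.0, 151 and 128 TPM in culture and 84.0 and 76.5 TPM at E11.5, a rise of 0.83 ± 0.13 (adjusted p = 0.0047). The gene of SREBP1, Srebf1, rose by 0.89 ± 0.18 (adjusted p = 0.0141), a call that ended with the replicates averaged (0.0867), without cultured replicate 1 (0.0568) or 2 (0.0606) and without E11.5 replicate 2 (0.101). Among the 10 genes of LXR, the sensor of excess sterol, and of sterol efflux, 2 rose and 0 fell (median 0.37). Apoe, the lipid carrier, had 498, 474 and 372 TPM in culture and 123 and 120.3 TPM at E11.5 and rose by 1.86 ± 0.19 (adjusted p = 0.000208), and Lpcat3 was the other (adjusted p = 0.0138, and 0.107 without E11.5 replicate 1).

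Of the 15 genes of fatty acid synthesis and desaturation, 14 were members, and 11 rose and 0 fell (median 0.90), with 7 stable calls and 7 calls without E11.5 replicate 1. Scd1, a desaturase that makes monounsaturated fatty acids, had 78.7, 81.1 and 76.4 TPM in culture and 7.09 and 12.5 TPM at E11.5. The lowest cultured library was several times the highest E11.5 library, and the rise of 2.93 ± 0.18 (adjusted p = 2.83e-06) was the largest of the list. Its relative Scd2 was far more abundant, at 811, 826 and 793 TPM in culture and 345 and 364 TPM at E11.5, and rose by 1.19 ± 0.11 (adjusted p = 8.85e-05). Fasn, the fatty acid synthase, rose by 1.05 ± 0.12 (adjusted p = 0.000344) and Fads2, a desaturase of polyunsaturated fatty acids, by 0.95 ± 0.12 (adjusted p = 0.000603).

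Promoter sequences were available for 16 of the 21 cholesterol genes in a RefSeq table (GRCm38.p6, 250 bases before to 50 after each start; 27025 genes, several starts counted together). They were searched on both strands for TCACNCCAC, a form of the sterol regulatory element bound by SREBPs, and for CCAAT, the box of NF-Y, which binds beside SREBPs. TCACNCCAC was found for 1 of the 16, Hmgcs1, for 0 of the 8 genes of SREBP control in the table, and in 1.44% of all its genes. CCAAT was found for 15 of the 16 (93.8%), the uncalled Lbr and Ebp included, against 41.1% of all genes and 42.5% of the members with a promoter. In the other lists searched, CCAAT was found for 33.3% (MiT-TFE factors and targets) to 68.75% (integrated stress response) of the genes. A match of letters is a description and not a shown binding site. The stretches before the start of Hmgcs1, which encodes the HMG-CoA synthase (chr13:119690101-119690330, plus strand), of Msmo1 (chr8:64733609-64733758, minus strand) and of Idi1, the isopentenyl diphosphate isomerase (chr13:8885541-8885605, plus strand), show how the matches lie. They are written 5′ to 3′ along the gene with each match, on either strand, in capitals.
Hmgcs1: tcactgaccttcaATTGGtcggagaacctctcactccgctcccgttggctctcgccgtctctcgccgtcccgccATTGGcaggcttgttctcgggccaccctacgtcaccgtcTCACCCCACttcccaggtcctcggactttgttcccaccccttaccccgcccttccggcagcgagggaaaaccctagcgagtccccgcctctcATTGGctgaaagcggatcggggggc
Msmo1: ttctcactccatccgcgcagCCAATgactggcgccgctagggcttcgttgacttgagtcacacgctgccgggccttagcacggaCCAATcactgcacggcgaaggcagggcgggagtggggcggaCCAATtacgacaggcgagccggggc
Idi1: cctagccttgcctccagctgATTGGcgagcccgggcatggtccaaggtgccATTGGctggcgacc
Hmgcs1 holds 3 CCAAT boxes and the sterol element, Msmo1 3 boxes and Idi1 2. These genes had 326, 323 and 404 TPM in culture and 153 and 128 TPM at E11.5 for Hmgcs1, with a rise of 1.32 ± 0.14 (adjusted p = 0.000276). Idi1 had 160.5, 155 and 170.0 TPM in culture and 53.6 and 54.3 TPM at E11.5, and rose by 1.57 ± 0.13 (adjusted p = 2.99e-05). Hmgcs1 and Idi1 were chosen for their sequence after their values were seen.

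**Figure D2:**
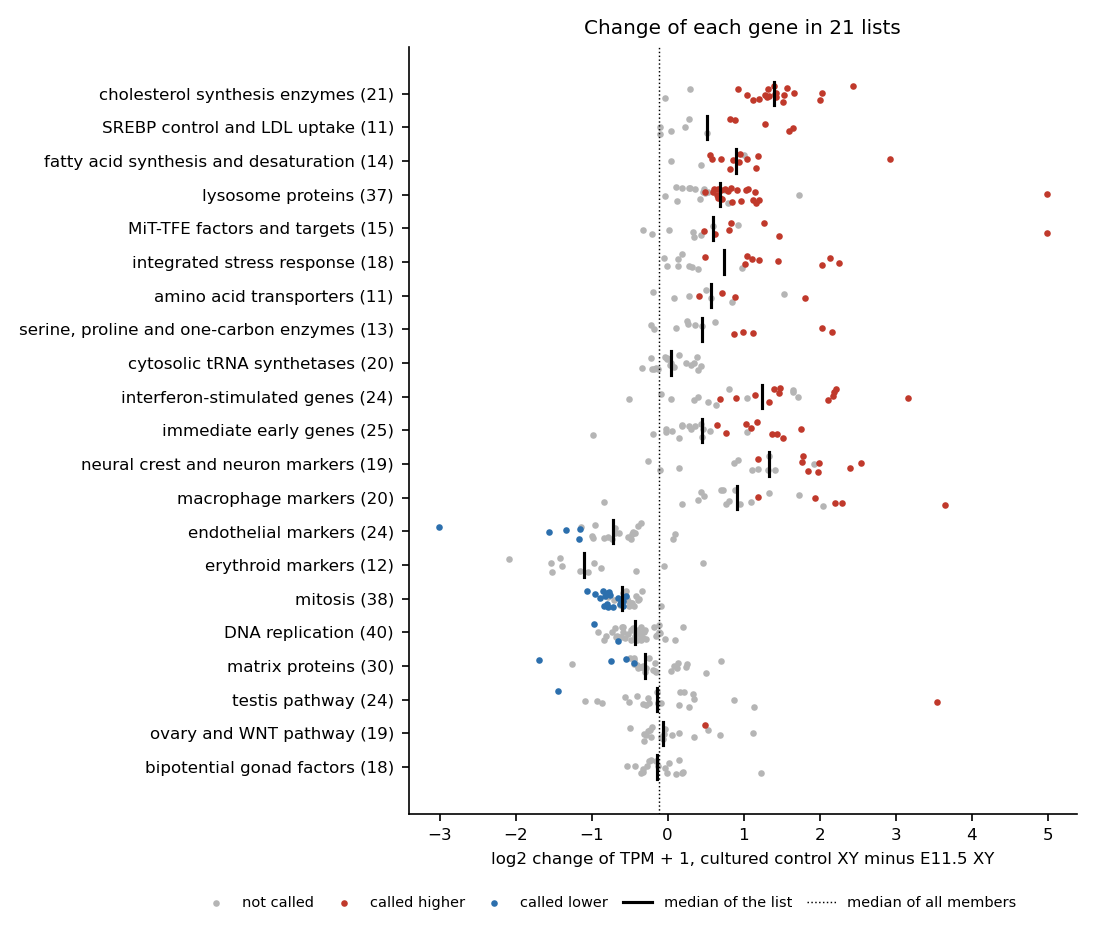
Log2 change of TPM + 1, cultured control XY minus E11.5 XY (x axis), of every member of 21 gene lists (y axis, number of members in brackets). Red and blue points are called genes, grey points are not called, black bars are list medians and the dotted line is the median of all members at -0.11; the cholesterol median is 1.40 and the mitosis median -0.60.

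Lysosomal genes were the other large group of increases. Of 38 listed genes, 37 were members, 22 rose and 0 fell, with a median of 0.69. Of the 22 calls 10 were stable, and 13 to 14 genes were called without any 1 library other than cultured replicate 3. Gpnmb (chr6:49036546-49070929), a transmembrane glycoprotein of lysosomes and melanosomes that MiT-TFE factors switch on, was nearly silent at E11.5 and stood at 43.9, 43.7 and 21.1 TPM in culture and 0 and 0.25 TPM at E11.5. It rose by 4.99 ± 0.29 (adjusted p = 2.31e-06), the largest change among the lists apart from Rps27 (below), and cultured replicate 3 had the lowest of its cultured values. The other increases were smaller and even. Asah1, the acid ceramidase, had 111, 115 and 110.2 TPM in culture and 57.5 and 60.4 TPM at E11.5 and rose by 0.91 ± 0.09 (adjusted p = 0.000213). Ctsl, the protease cathepsin L, had 137, 137 and 137 TPM in culture and 67.5 and 72.2 TPM at E11.5 and rose by 0.96 ± 0.10 (adjusted p = 0.000295). Ctsd, cathepsin D, was at 252, 252 and 197 TPM in culture and 111 and 111 TPM at E11.5 and rose by 1.06 ± 0.12 (adjusted p = 0.000434).

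The list of MiT-TFE factors and targets, which also holds Gpnmb, had 7 of 15 members higher and 0 lower (median 0.60), and 4 were called without E11.5 replicate 1. Rragd, a Rag GTPase that tethers mTORC1 to lysosomes, had 23.3, 21.3 and 21.4 TPM in culture and 7.20 and 7.41 TPM at E11.5 and rose by 1.47 ± 0.15 (adjusted p = 0.000226). Flcn, folliculin, which acts on the Rag GTPases, was at 41.1, 37.7 and 34.7 TPM in culture and 15.4 and 14.7 TPM at E11.5 and rose by 1.27 ± 0.13 (adjusted p = 0.000226). Its partner Fnip1 rose by 0.83 ± 0.14 (adjusted p = 0.00492, and 0.0547 without E11.5 replicate 1). Of the factors themselves, Tfe3 had 26.1, 24.2 and 27.2 TPM in culture and 19.5 and 17.2 TPM at E11.5, a rise of 0.47 ± 0.13 at the edge of the threshold (adjusted p = 0.0477), which ended with the replicates averaged (0.184) and without any 1 of the 5 libraries (0.0686 to 0.175). Tfeb changed by 0.92 ± 0.33 (adjusted p = 0.12) and Mitf by -0.21 ± 0.41 (adjusted p = 0.801), neither past the threshold.

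The letters TCACGTGA, the core of the CLEAR element that MiT-TFE factors bind, were found on either strand for 7 of the 27 lysosomal genes in the promoter table (25.9%), against 1.12% of all genes and 1.97% of the members with a promoter. The 15 MiT-TFE genes had 0, and the letters were also found for 2 of the 12 cytosolic tRNA synthetases in the promoter table (16.7%). Of the 7 lysosomal genes, Ctsd, Ctsa, Atp6v0d1 and Atp6v1a were called higher and Gla, Mcoln1 and Cln3 were not called. Stretches are given for Ctsd (chr7:142387899-142387946, minus strand), for Ctsa, the protective protein cathepsin A (chr2:164833740-164833772, plus strand), and for the uncalled Mcoln1, a cation channel of lysosomes (chr8:3500453-3500500, plus strand). The match in capitals begins 99, 13 and 46 bases before the start.
Ctsd: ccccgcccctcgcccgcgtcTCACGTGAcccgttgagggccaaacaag
Ctsa: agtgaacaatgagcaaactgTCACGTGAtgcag
Mcoln1: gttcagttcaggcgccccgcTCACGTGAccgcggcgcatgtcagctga
Ctsa, shown for its sequence, had 61.7, 70.9 and 54.9 TPM in culture and 38.7 and 36.5 TPM at E11.5, and its rise of 0.71 ± 0.17 (adjusted p = 0.0362) ended when the replicates were averaged (0.161). Mcoln1 had 32.3, 34.3 and 27.5 TPM in culture and 13.7 and 22.6 TPM at E11.5 and a change of 0.79 ± 0.23 (adjusted p = 0.0669).

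Part of the integrated stress response was higher. Of 19 listed genes 18 were members, 9 rose and 0 fell (median 0.74), and 3 calls were stable, those of Trib3, Sesn2 and Asns. Without cultured replicate 1, without cultured replicate 2, without E11.5 replicate 1 and without E11.5 replicate 2 the calls numbered 5, 6, 6 and 5. Trib3, a pseudokinase induced by ATF4, had 5.37, 7.91 and 9.27 TPM in culture and 0.64 and 1.21 TPM at E11.5 and rose by 2.13 ± 0.29 (adjusted p = 0.00121). Asns, the asparagine synthetase, was at 121, 107 and 116 TPM in culture and 49.0 and 63.9 TPM at E11.5, with every cultured library above the E11.5 ones, and rose by 1.02 ± 0.13 (adjusted p = 0.000889). Sesn2, a leucine sensor that restrains mTORC1, rose by 1.11 ± 0.17 (adjusted p = 0.00328). Chac1, which degrades glutathione, had 7.32, 3.64 and 3.27 TPM in culture and 0 and 0.33 TPM at E11.5, and its call (adjusted p = 0.00483) ended without E11.5 replicate 1 (0.0566). The mRNA of Atf4 itself stood at 226, 214 and 214 TPM in culture and 177 and 174 TPM at E11.5, groups that do not overlap, with a change of 0.31 ± 0.11 that did not pass (adjusted p = 0.121).

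Of the 11 amino acid transporters 4 rose and 0 fell (median 0.57), and 1 was called without E11.5 replicate 1. Slc7a11, the cystine importer, had 8.60, 8.88 and 7.27 TPM in culture and 1.55 and 1.71 TPM at E11.5 and rose by 1.81 ± 0.25 (adjusted p = 0.00155), the 1 stable call of the list. Of the 13 genes of serine, proline and one-carbon metabolism, 5 rose and 0 fell (median 0.46), 4 of them stable. Psat1 of serine synthesis had 74.9, 70.7 and 72.2 TPM in culture and 31.2 and 34.7 TPM at E11.5 and rose by 1.12 ± 0.16 (adjusted p = 0.00181). The mitochondrial folate enzymes Shmt2, Mthfd2 and Aldh1l2 rose by 0.87 ± 0.12 (adjusted p = 0.00156), 0.99 ± 0.14 (adjusted p = 0.00225) and 2.16 ± 0.36 (adjusted p = 0.00527). The 20 cytosolic tRNA synthetases, also classed as ATF4 targets, gave 0 calls in limma and a median of 0.04, with 4 higher at an unadjusted p below 0.05. Under median-of-ratios scaling, quantile normalization and without the 50 most abundant genes, 3, 4 and 4 of them were called higher. Of 24 genes for chaperones and the unfolded protein response of the endoplasmic reticulum, 1 rose and 2 fell (median 0.07), and none of these calls was stable.

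TGATGNAA, the core of the element bound by ATF4 with C/EBP partners, occurred in 6 of the 16 stress response genes in the promoter table (37.5%) against 4.51% of all genes and 2.92% of the members with a promoter. The 6 include Atf3 and Vldlr, which were not called. It also occurred in 5 of the 12 tRNA synthetases there, none of which was called without a scaling. The stretches of Asns (chr6:7693210-7693252, minus strand) and Chac1 (chr2:119351029-119351076, plus strand) are shown with the match in capitals, 23 and 193 bases before the start, that of Chac1 on the opposite strand.
Asns: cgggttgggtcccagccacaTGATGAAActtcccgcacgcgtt
Chac1: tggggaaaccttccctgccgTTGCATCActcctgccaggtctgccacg

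**Figure D3:**
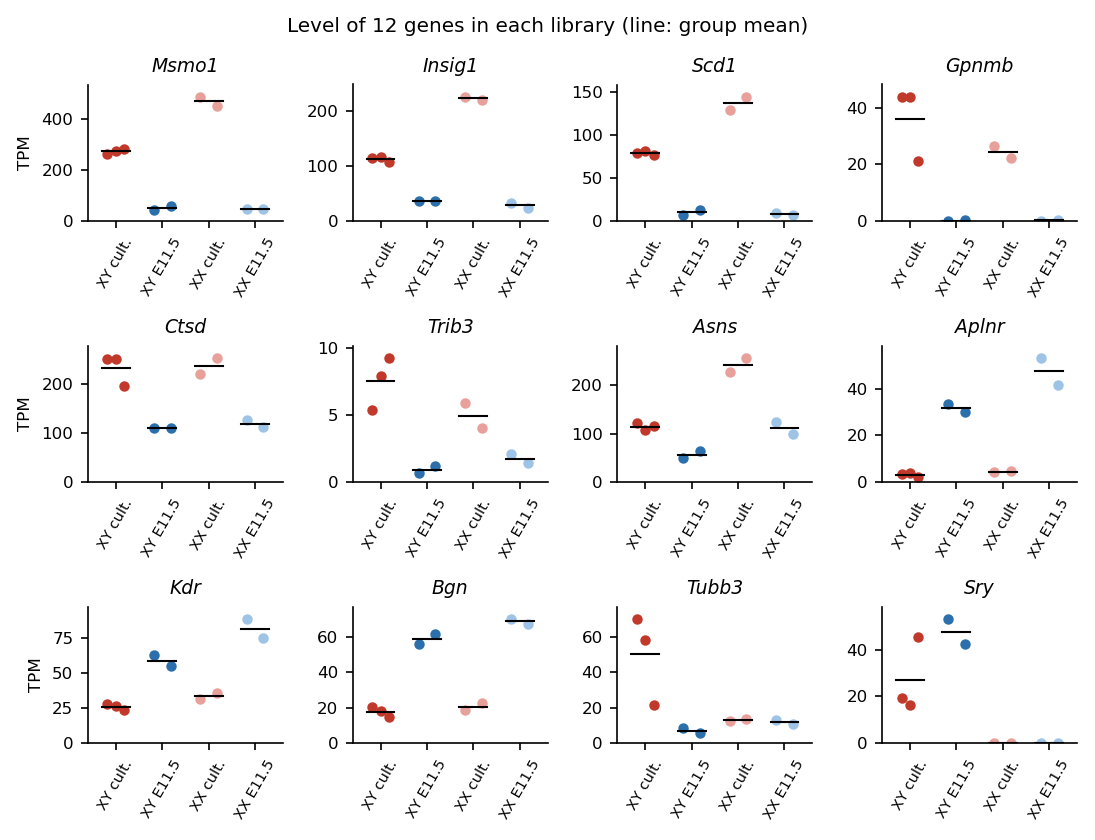
TPM of 12 genes in each library (points, linear axis from 0) by group: cultured XY and E11.5 XY, and the XX pair; lines are group means. Msmo1, Insig1 and Scd1 are near-constant within cultured XY, Gpnmb and Tubb3 are lowest there in replicate 3, and Aplnr, Kdr and Bgn are lower in culture in both sexes.

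Other genes that support metabolism and stress defence were higher singly rather than as whole lists. Uap1l1, a relative of the enzyme that makes UDP-N-acetylglucosamine, had 46.7, 56.9 and 46.3 TPM in culture and 7.0 and 5.74 TPM at E11.5 and rose by 2.79 ± 0.17 (adjusted p = 2.83e-06). The metal-binding metallothionein gene Mt1 was at 208, 234 and 126 TPM in culture and 21.6 and 48.4 TPM at E11.5 and rose by 2.46 ± 0.32 (adjusted p = 0.00107). Tfrc, the receptor for iron-loaded transferrin, rose by 0.95 ± 0.15 (adjusted p = 0.0047), from 60.2, 56.9 and 84.4 TPM in culture and 36.4 and 31.1 TPM at E11.5. In iron handling as a whole 3 of 19 rose and 0 fell (median 0.01), among NRF2 targets 5 of 20 rose and 0 fell (median 0.33), and among p53 targets 3 of 21 rose and 0 fell (median 0.32). Of 16 heat shock genes 0 were called in limma, with 3 higher and 6 lower at an unadjusted p below 0.05, and without cultured replicate 3 there were 1 higher and 5 lower calls. Dbp, a clock-controlled transcription factor, had 39.1, 37.7 and 34.2 TPM in culture and 10.3 and 11.6 TPM at E11.5 and rose by 1.67 ± 0.19 (adjusted p = 0.000369), the 1 call among 12 clock genes. Of 24 hypoxia genes 2 rose, Bhlhe40 (adjusted p = 0.00529, and 0.0637 without E11.5 replicate 1) and Nrn1, and 0 fell (median -0.01). Of 20 glycolysis genes 1 rose, Aldoc by 1.03 ± 0.17 (adjusted p = 0.00503), and 3 fell, none of the 3 stable. Without cultured replicate 3 there were 1 higher and 7 lower calls among glycolysis genes, and 2 higher and 4 lower among hypoxia genes.

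Of 26 interferon-stimulated genes 24 were members, 12 rose and 0 fell, with a median of 1.25. H2-K1, a class I histocompatibility gene, had 9.37, 11.9 and 9.95 TPM in culture and 0 and 0.62 TPM at E11.5. Its increase of 3.16 ± 0.36 (adjusted p = 0.000429) was stable, as was that of the GTPase gene Gbp3, 2.21 ± 0.29 (adjusted p = 0.000918). B2m, the partner chain of class I molecules, was more abundant, at 145, 144 and 88.0 TPM in culture and 52.2 and 57.1 TPM at E11.5, and rose by 1.15 ± 0.18 (adjusted p = 0.00409, and 0.055 without E11.5 replicate 1). With the replicates averaged 6 were called, without E11.5 replicate 1 there were 4, and without cultured replicate 1 or 2 or E11.5 replicate 2 there were 7.

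Of 24 endothelial markers 5 fell and 0 rose, with a median of -0.71, which was -0.37 without cultured replicate 3. Without cultured replicate 2 there were 3 calls, and without E11.5 replicate 1 there were 2. Aplnr, the apelin receptor, had 3.36, 3.82 and 2.15 TPM in culture and 33.4 and 29.9 TPM at E11.5, a fall of 3.01 ± 0.24 (adjusted p = 2.58e-05) that was stable. Kdr, the main receptor for VEGF, had 28.0, 26.1 and 23.4 TPM in culture and 62.9 and 54.9 TPM at E11.5 and fell by 1.16 ± 0.14 (adjusted p = 0.000647), also stable. Flt1, a second VEGF receptor, and Ramp2, a partner of the adrenomedullin receptor, fell by 1.33 ± 0.26 (adjusted p = 0.0123) and 1.17 ± 0.23 (adjusted p = 0.0152). The call of Flt1 ended on averaging (0.0561) and without E11.5 replicate 1 (0.0889). That of Ramp2 ended without cultured replicate 2 (0.0667) and without E11.5 replicate 1 (0.102) or 2 (0.0581).

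The defining endothelial markers did not pass. Pecam1 had 22.2, 23.7 and 8.14 TPM in culture and 21.9 and 33.7 TPM at E11.5, with overlapping groups, and a change of -0.70 ± 0.36 (adjusted p = 0.26). Cdh5, the cadherin of endothelial junctions, was at 40.4, 40.1 and 16.1 TPM in culture and 53.1 and 50.9 TPM at E11.5, low mainly in replicate 3, with a change of -0.78 ± 0.37 (adjusted p = 0.218). The 24 markers summed to 327, 314 and 163 TPM in culture and 511 and 499 TPM at E11.5. In bulk RNA fewer cells of a type and less RNA per cell cannot be told apart, and the part of endothelial content in the fall of Aplnr and Kdr was not tested.

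Matrix genes gave 0 increases and 4 decreases among 30 (median -0.30). Bgn, the small proteoglycan biglycan, had 20.2, 18.4 and 14.6 TPM in culture and 56.1 and 61.7 TPM at E11.5, and fell by 1.69 ± 0.22 (adjusted p = 0.000918), the 1 stable call. The falls of Postn, Nid1 and Lamc1, by 0.75 ± 0.15, 0.55 ± 0.11 and 0.44 ± 0.10, ended when the replicates were averaged (0.104, 0.115 and 0.155). Without cultured replicate 3 there were 8 matrix calls, without cultured replicate 1 or 2 there was 1, and without either E11.5 library there were 2.

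Genes of cells other than gonadal somatic cells moved in both directions. Of 20 macrophage markers 5 rose and 0 fell (median 0.92), and the calls numbered 2 without E11.5 replicate 1 and 3 without cultured replicate 1 or 2. Lyz2, lysozyme, had 42.4, 36.8 and 18.6 TPM in culture and 1.06 and 2.14 TPM at E11.5, and rose by 3.65 ± 0.33 (adjusted p = 8.38e-05), and the complement gene C1qb rose by 2.21 ± 0.31 (adjusted p = 0.00169), and both calls were stable. The defining genes Csf1r and Ptprc were low in every library, at 2.80 to 7.03 and 0.45 to 2.28 TPM, and Csf1r changed by 0.73 ± 0.45 (adjusted p = 0.35). The 20 markers summed to 227, 192 and 124 TPM in culture and 46.7 and 71.3 TPM at E11.5. Macrophages are rich in lysosomal proteins, and the part of macrophage content in the lysosomal increases was not tested.

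Of 20 neural crest and neuron markers 19 were members, 8 rose and 0 fell (median 1.33), with 14 called without cultured replicate 3 and 5 without E11.5 replicate 1. Tubb3, neuronal tubulin, had 70.4, 58.6 and 21.6 TPM in culture and 8.41 and 5.61 TPM at E11.5, highest in replicates 1 and 2, and rose by 2.54 ± 0.41 (adjusted p = 0.0047, and 0.051 without E11.5 replicate 2). Gap43, a growth cone protein, had 53.7, 54.2 and 39.3 TPM in culture and 6.82 and 10.3 TPM at E11.5 and rose by 2.40 ± 0.31 (adjusted p = 0.000876). Nefl, a neurofilament, and Dbh, the enzyme that makes noradrenaline, rose by 1.84 ± 0.25 (adjusted p = 0.00122) and 1.78 ± 0.26 (adjusted p = 0.00249). The calls of Gap43, Nefl and Dbh were stable. The defining neural crest gene Sox10 was present at 2.49 to 7.54 TPM, with a change of 0.87 ± 0.29 (adjusted p = 0.0971, and 0.0436 without cultured replicate 3). The 19 markers summed to 661, 534 and 370.0 TPM in culture and 175 and 207 TPM at E11.5, and the part of neuron content in any single gene was not tested.

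Erythroid markers showed how far replicate 3 stood from the other cultured libraries. The 12 members, globins included, summed to 2226, 2563 and 334 TPM in culture and 3399 and 2619 TPM at E11.5, and 0 were called in limma (median -1.10, and -0.33 without cultured replicate 3), with 4 lower at an unadjusted p below 0.05. Alas2, the heme synthesis enzyme of red cells, was at 1.25 to 13.6 TPM. Of 13 germ cell members 2 were called higher, Nanos3 and Ifitm3, neither stable, with Ddx4 at 0.35 to 1.0 TPM and Dppa3 at 1.61 to 10.4 TPM. Mesonephric epithelium and mesenchyme gave 0 calls in limma among 12 and 18, with 1 higher, and with 1 higher and 6 lower, at an unadjusted p below 0.05, and 1 gene of mesonephric epithelium was called higher without cultured replicate 3 and under each of the 3 scalings. The tubule factors Pax2 and Pax8 were present, Pax2 at 8.93 to 15.6 and Pax8 at 18.9 to 28.2 TPM. Krt19, a keratin of coelomic epithelium, was the 1 call among 11 coelomic epithelium markers: it had 37.5, 30.1 and 39.8 TPM in culture and 12.5 and 11.6 TPM at E11.5 and rose by 1.49 ± 0.16 (adjusted p = 0.00026).

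**Figure D4:**
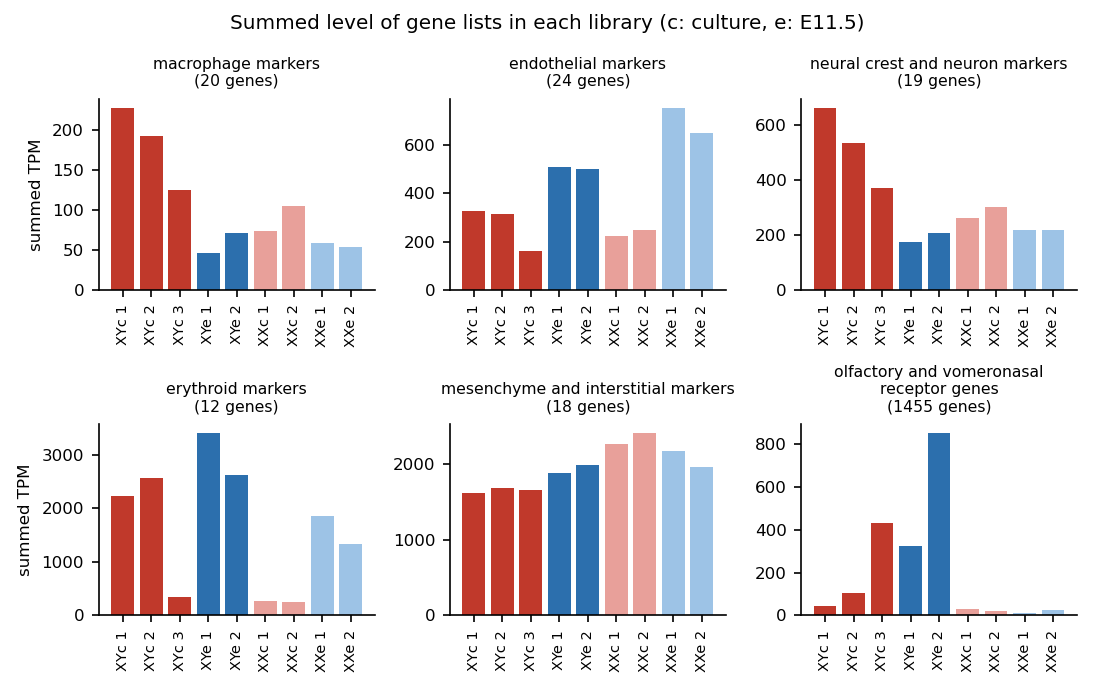
Summed TPM (y axis, from 0) of 5 marker lists of other cell types and of 1455 olfactory and vomeronasal receptor genes in each library (x axis; XYc and XXc, culture; XYe and XXe, E11.5). Erythroid sums are 334 TPM in cultured XY replicate 3 and 2227 and 2563 in replicates 1 and 2, and receptor genes reach 852 TPM in E11.5 XY replicate 2.

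Genes of gonadal identity gave few calls. Of 18 factors of the bipotential gonad 0 were called in limma, 1 was higher and 3 were lower at an unadjusted p below 0.05, and the median was -0.14 beside -0.11 for all members. Without cultured replicate 3, 4 of the 18 were called lower. Nr5a1 stood at 97.2, 104 and 127 TPM in culture and 152 and 141 TPM at E11.5 and changed by -0.42 ± 0.15 (adjusted p = 0.118, and 0.0498 without cultured replicate 3). Wt1, needed for the gonad to form, was at 190.3, 191 and 189 TPM in culture and 213 and 211 TPM at E11.5, Gata4 at 144, 149 and 155 TPM in culture and 148 and 113 TPM at E11.5 and Lhx9 at 78.5, 78.8 and 117 TPM in culture and 124 and 104 TPM at E11.5. Their changes were -0.16 ± 0.08 (adjusted p = 0.277), 0.20 ± 0.17 (adjusted p = 0.516) and -0.33 ± 0.17 (adjusted p = 0.258, and 0.0362 without cultured replicate 3).

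Among 24 testis genes 1 rose and 1 fell (median -0.14), and neither call was stable. Without cultured replicate 3 there were 2 of each. Sry (chrY:2662471-2663658), the switch of testis development, had 19.5, 16.4 and 45.6 TPM in culture and 53.4 and 42.4 TPM at E11.5. Cultured replicates 1 and 2 lay below both E11.5 libraries and replicate 3 lay between them, so the groups overlapped, and the change of -0.93 ± 0.37 did not pass (adjusted p = 0.156). Without cultured replicate 3 the change was -1.36 and Sry was called lower (adjusted p = 0.0193). Sox9, the main target of SRY, was at 66.3, 68.1 and 46.8 TPM in culture and 66.2 and 75.8 TPM at E11.5, with a change of -0.25 ± 0.16 (adjusted p = 0.377). Fgf9, which maintains Sox9, had 2.18, 2.33 and 4.15 TPM in culture and 5.97 and 5.86 TPM at E11.5 and a change of -0.87 ± 0.31 (adjusted p = 0.115). Amh, the anti-Müllerian hormone made by later Sertoli cells, stood at most at 1.22 TPM. The genes called were Ptgds, which makes prostaglandin D2, at 26.9, 29.0 and 6.60 TPM in culture and 0 and 1.54 TPM at E11.5, and Cbln4, at 1.98, 1.26 and 1.94 TPM in culture and 6.13 and 6.52 TPM at E11.5. Their adjusted p of 0.0239 and 0.0408 became 0.118 and 0.117 with the replicates averaged.

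In the ovary and WNT list 1 of 19 rose and 0 fell (median -0.07). Wnt4, a signal of the ovarian pathway, had 85.1, 83.6 and 92.8 TPM in culture and 62.2 and 61.6 TPM at E11.5 and rose by 0.49 ± 0.13 (adjusted p = 0.0458). That call ended without any 1 of the 5 libraries (0.0686 to 0.141) and on averaging (0.141). Foxl2 and Fst, later markers of the ovary, changed by 0.69 ± 0.50 (adjusted p = 0.426) and 0.53 ± 0.24 (adjusted p = 0.205). Of 12 steroidogenic members 3 rose and 1 fell (median 0.09), and none of these calls was stable. The call of the lower gene, Hsd3b6, ended in all 9 alternatives. Cyp11a1, which cuts the side chain of cholesterol to begin steroid synthesis, had 41.0, 45.9 and 28.2 TPM in culture and 12.1 and 6.86 TPM at E11.5 and rose by 1.93 ± 0.35 (adjusted p = 0.00896, and 0.0816 without E11.5 replicate 2).

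Immediate early genes respond within minutes to growth factors and to handling. Of 25 members 9 rose and 0 fell (median 0.46), 2 were called on averaging, and 3 were called without E11.5 replicate 1 and 4 without E11.5 replicate 2. Fos had 104, 126 and 123 TPM in culture and 42.1 and 38.3 TPM at E11.5, and rose by 1.52 ± 0.17 (adjusted p = 0.000369). Egr1, a zinc finger factor, was at 255, 265 and 153 TPM in culture and 76.7 and 83.4 TPM at E11.5 and rose by 1.44 ± 0.20 (adjusted p = 0.00167), and these were the 2 stable calls. Dusp5, a nuclear phosphatase of ERK, had 32.4, 27.6 and 36.0 TPM in culture and 7.90 and 10.5 TPM at E11.5 and rose by 1.70 ± 0.14 (adjusted p = 4.68e-05), and of 17 genes of FGF and ERK feedback 2 rose, Dusp5 and Dusp4, and 0 fell (median -0.24). The call of Dusp4 (adjusted p = 0.0286) ended on averaging (0.113) and without any 1 library but cultured replicate 3.

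Of 38 mitotic genes, 19 fell and 0 rose (median -0.60), and all 38 changes were negative. The number called was 3 without E11.5 replicate 1, 4 without cultured replicate 2, 5 without cultured replicate 1 or E11.5 replicate 2, and 25 without cultured replicate 3. It was 1 with the replicates averaged. Mki67, the proliferation marker Ki-67, had 136, 125 and 137 TPM in culture and 219 and 239.8 TPM at E11.5, with no overlap, and fell by 0.79 ± 0.12 (adjusted p = 0.00356), the stable call. Plk1, a mitotic kinase, had 34.3, 37.2 and 41.8 TPM in culture and 67.1 and 64.8 TPM at E11.5 and fell by 0.79 ± 0.14 (adjusted p = 0.00698, 0.0543 on averaging and 0.0602 without E11.5 replicate 1). DNA replication genes had a median of -0.43, but of 40, 2 fell and 0 rose. Histone genes of S phase had 7 of 64 lower and 0 higher (median -0.24). Of 81 ribosomal protein genes 8 fell and 1 rose (median -0.19), and none of the calls in these 3 lists was stable. Without cultured replicate 3 the 3 lists had 6, 9 and 23 lower genes, and without E11.5 replicate 1 they had 0.

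The largest called changes included genes whose values call for care. Rps27 (chr3:90212522-90213651), a ribosomal protein gene, had 1669, 1656 and 583 TPM in culture and 7.38 and 9.68 TPM at E11.5. Its near-identical copy Rps27rt went the other way, at 307, 220.4 and 403 TPM in culture and 1103 and 938 TPM at E11.5, and the sum of both was 1976, 1877 and 986 TPM in culture and 1111 and 948 TPM at E11.5. The authors' counting can divide reads between the copies, so the change of Rps27 (log2 6.95 ± 1.13, adjusted p = 0.0047, and 0.0587 without E11.5 replicate 1) is uncertain. After Rps27 and Gpnmb, the largest increases were those of Celf3, an RNA-binding protein of neurons, by 3.76 ± 0.46 (adjusted p = 0.000647), and of Lgals3, a galectin, by 3.75 ± 0.49 (adjusted p = 0.000984), both stable. Celf3 had 22.3, 21.4 and 8.34 TPM in culture and 0.13 and 0.39 TPM at E11.5 and Lgals3 had 32.0, 37.4 and 12.6 TPM in culture and 0 and 2.69 TPM at E11.5, each highest in replicates 1 and 2.

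After Aplnr, the largest decreases were of genes near the floor of detection. Nrn1l was listed at 0 in all cultured libraries and at 8.33 and 2.31 TPM at E11.5. The interferon gene Ifna1 had 0, 0 and 0.94 TPM in culture and 7.77 and 3.92 TPM at E11.5, and Gtsf1l had 0.32, 0.32 and 3.88 TPM in culture and 9.0 and 10.2 TPM at E11.5. These 3 genes were listed at 0 in all 4 XX libraries, as were 71 of the 491 lower genes, 2 of the 422 higher genes and 682 of all 15373 members (4.44%). Of 104 receptor genes that are members, 20 were called lower and 0 higher, beside 3.19% lower and 2.75% higher of all members. Genes near the floor in 1 group can become members through the libraries of the other group alone, which favours calls in that direction. This holds for decreases and equally for increases from near 0 at E11.5, such as those of Gpnmb, H2-K1 and Ifi27l2a. Neither the count of genes at 0 in XX nor that of receptor genes is read as a result. The sum over all 1455 was highest in E11.5 replicate 2 and in cultured replicate 3. Of the E11.5 libraries, replicate 1 had the higher value of Nrn1l and Ifna1, and replicate 2 that of Gtsf1l. Of the cultured libraries, replicate 3 had the highest value of Ifna1 and Gtsf1l. The part of such low-level signal in these decreases was not tested. Averaging the replicates ended 10 of the 12 largest decreases, and that of Aplnr was among those that held.

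The same comparison in XX gave 1178 higher (7.66%) and 270 lower (1.76%) of these members, median 0.13, although 2013 members do not reach 1 TPM in 2 of the 4 XX libraries. The counts in XX were 471 and 374 under median-of-ratios scaling, 422 and 273 after quantile normalization and 722 and 311 without the 50 most abundant genes. Of the genes higher in XY, 218 were also called higher in XX and 2 called lower; of those lower in XY, 47 were called lower in XX and 9 higher. In XX 19 of the 21 cholesterol genes were called higher too, with a median of 2.27 beside 1.40 in XY, and lysosomal genes had 24 called with a median of 0.85 beside 0.69. Of the endothelial markers 14 were called lower in XX, with a median of -1.43, where Aplnr changed by -3.17 ± 0.26 and Kdr by -1.27 ± 0.16. Interferon-stimulated genes and neural markers had XX medians of 0.13 and 0.15, against 1.25 and 1.33 in XY. In XX 5 interferon-stimulated genes were called higher and 1 lower, and 1 neural marker was called higher and 0 lower. Side by side such medians are not a test. The interaction contrast described next called 0 of the 24 interferon-stimulated members and 2 of the 19 neural members, both more positive in XY.

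The interaction contrast tests whether the change in XY differs from that in XX, and it called 215 members (1.4%), 31 of them more positive in XY and 184 more negative. The split by direction depended on the scaling, with 21 more positive and 13 more negative under median-of-ratios, 29 and 24 after quantile normalization, and 21 and 21 without the 50 most abundant genes. The count was 8 with cultured XY replicates 1 and 2 averaged. Without cultured XY replicate 3 it was 705, without E11.5 XX replicate 1 it was 214, and without any other library it was 14 to 45. The share of Rpph1 moved the other way in XX, at 7.20% and 6.96% in culture and 8.57% and 11.47% at E11.5, and its part in these differences was not tested. Of the cholesterol genes 9 were called, all with the smaller rise in XY. Lss had 77.7 and 74.5 TPM in cultured XX and 6.95 and 6.17 TPM at E11.5 XX, a rise of 3.35 ± 0.12, and the difference was -1.34 ± 0.17 (adjusted p = 0.00423, and 0.0659 on averaging). Cyp51 had 217 and 219 TPM in cultured XX and 40.9 and 38.5 TPM at E11.5 XX and a difference of -1.03 ± 0.13 (adjusted p = 0.00605, and 0.0666 on averaging).

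In the other direction, Fos had 281 and 315 TPM in cultured XX and 335 and 552 TPM at E11.5 XX, with E11.5 XX the highest of the 4 groups, and its difference was 2.05 ± 0.25 (adjusted p = 0.00423). Of the immediate early genes 5 were called, all more positive in XY, and Fosb and Dusp5 had differences of 1.87 ± 0.21 (adjusted p = 0.00304) and 2.0 ± 0.21 (adjusted p = 0.00304). Ifi27l2a, an interferon-inducible gene, had 6.27, 12.6 and 12.4 TPM in culture and 0 and 0 TPM at E11.5 in XY and 0 and 0 TPM in cultured XX and 9.50 and 4.45 TPM at E11.5 XX, opposite patterns with no overlap in either sex. Its adjusted p for the difference was 0.00181, and it was called in all 9 fits that left out a library and on averaging. Zim1, an imprinted gene, had 80.3, 77.0 and 74.1 TPM in culture and 115 and 122 TPM at E11.5 in XY and 141 and 139 TPM in cultured XX and 90.2 and 83.6 TPM at E11.5 XX. Polr2a, the largest subunit of RNA polymerase II, had 143, 140.3 and 149 TPM in culture and 204 and 180.2 TPM at E11.5 in XY and 281 and 266 TPM in cultured XX and 168 and 158 TPM at E11.5 XX. Both fell in XY and rose in XX, the fall of Polr2a in XY ending on averaging (0.127). For Polr2a and Zim1 the differences were -1.15 ± 0.13 (adjusted p = 0.00304) and -1.29 ± 0.14 (adjusted p = 0.00304).

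**Figure D5:**
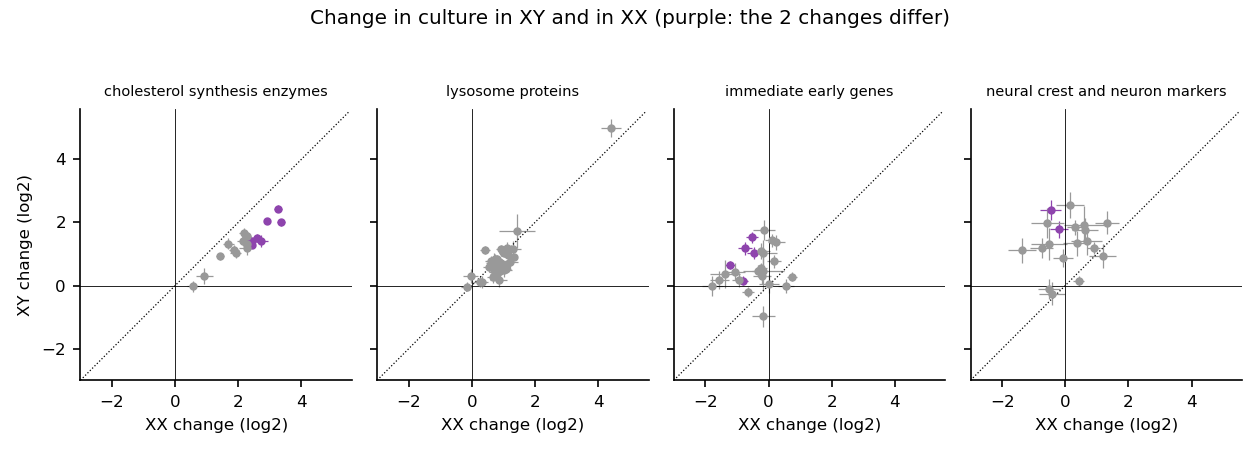
Log2 change in culture in XY (y axis) against XX (x axis) for the members of 4 lists, with SE bars; the dotted line marks equal changes, and purple points differ by the interaction contrast. Cholesterol genes lie below the line (XX median 2.27, XY 1.40), and immediate early genes mostly above it.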

How the data were processed

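RNA of NR5A1(+) cells was sequenced in 12 libraries of 5 groups. The authors deposited TPM per gene symbol, made with STAR 2.7.10b, RSEM, R 4.1.2 and mm10, per the submitters' processing notes. For the RSEM version, annotation and filters nothing is stated in the sources used here. TPM is a share of each library and keeps no depth, so no counting error is given. Genes with at least 1 TPM in at least 2 libraries (16133 over the 12 libraries) were fitted as log2(TPM + 1) with limma 3.58.1 in R 4.3.3, with 1 coefficient per group, a variance trend and Benjamini-Hochberg adjustment, threshold 0.05. The interaction contrast is the XY change minus the XX change. The scripts were tested on simulated data.

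Named genes were the 12 largest called changes each way (group mean of at least 5 TPM, groups not overlapping, no predicted, Y-linked or Xist genes), up to 4 calls per list, markers given for the comparison, a set of genes named whatever their test, and 4 interactions each way. Genes outside these rules were chosen after their values were seen, as were the receptor genes and the sum of Rps27 and Rps27rt. Results for some genes are not reported here, though counts and medians include them. Members and lists were chosen with earlier results of these data known. Gene positions are from GENCODE M21 (mm10; 14768 members matched), and promoters from RefSeq (GRCm38.p6; 11496 members). Alternatives were other pseudocounts, filters, scalings and fits, averaging of replicates 1 and 2 in the cultured control XY and chelator groups, each library left out, and a replicate block. Same-numbered replicates are not stated to be pairs.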

Additional observations from a re-analysis of the deposited data

Results flagged for a closer look

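The genes below are named by the rules, and their change in culture differed between XY and XX by the interaction contrast of limma (Benjamini-Hochberg adjusted p below 0.05). Each value is the XY change minus the XX change, log2 of TPM + 1. Where named, averaging means cultured control XY replicates 1 and 2 taken as 1 library, with replicates 1 and 2 of the chelator group merged likewise. In addition, 9 fits left out a library each.

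Among genes of cholesterol synthesis and its control, the rise in XY was smaller for Lss (-1.34 ± 0.17, adjusted p = 0.00423) and Cyp51 (-1.03 ± 0.13, adjusted p = 0.00605), which were called in all 9 fits that left out a library. It was smaller also for Fdps (-0.87 ± 0.14, adjusted p = 0.0208), Msmo1 (-0.83 ± 0.16, adjusted p = 0.0326) and Insig1 (-1.33 ± 0.21, adjusted p = 0.0208), called in 3, 2 and 2 of those fits. For these 3 genes the adjusted p was 0.128, 0.187 and 0.0954 under median-of-ratios scaling, and 0.0802, 0.143 and 0.0684 without the 50 most abundant genes. With averaging none of the 5 was called in limma (adjusted p 0.0659 for Lss to 0.167 for Msmo1).

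Immediate early genes differed the other way, with Fos (2.05 ± 0.25, adjusted p = 0.00423), Fosb (1.87 ± 0.21, adjusted p = 0.00304), Junb (1.92 ± 0.30, adjusted p = 0.0208) and the phosphatase gene Dusp5 (2.0 ± 0.21, adjusted p = 0.00304). Fos, Fosb and Dusp5 were called in all 9 fits and with averaging, and Junb in 4 and not with averaging (adjusted p = 0.127). The interferon-inducible gene Ifi27l2a (6.38 ± 0.59, adjusted p = 0.00181) was listed at 0 in E11.5 XY and in cultured XX, so its value depends on the pseudocount of 1. Polr2a (-1.15 ± 0.13, adjusted p = 0.00304) and Zim1 (-1.29 ± 0.14, adjusted p = 0.00304) had the more negative change in XY. These and Ifi27l2a were called in all 9 fits and with averaging.

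The remaining differences were not called with averaging (adjusted p 0.131 for Gap43 to 0.18 for Hsp90b1) and were called in 5 or fewer of the 9 fits. Markers of macrophages were Lyz2 (2.55 ± 0.49, adjusted p = 0.0326) and C1qb (2.10 ± 0.46, adjusted p = 0.0488). Neural markers were Gap43 (2.86 ± 0.46, adjusted p = 0.0208) and Dbh (1.98 ± 0.39, adjusted p = 0.0364). Chaperone genes were Hsp90b1 (-0.90 ± 0.19, adjusted p = 0.0415) and Pdia6 (-0.71 ± 0.13, adjusted p = 0.0306). Gonadal and steroidogenic genes were Wt1 (-0.59 ± 0.12, adjusted p = 0.046), Cbln4 (-2.48 ± 0.54, adjusted p = 0.0479), Fst (1.61 ± 0.36, adjusted p = 0.0488) and Fdx1 (1.32 ± 0.28, adjusted p = 0.0468). The difference in Wt1 had an adjusted p of 0.231 to 0.349 under the 3 scalings. Gap43, Dbh and Fst were called under each of these scalings, and the other 7 missed the threshold under 2 or more of them.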

How the results depend on the processing

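No named call changed sign under any setting. The libraries of all 913 called genes do not overlap between the groups, so leaving out or averaging XY libraries could not change the sign of a call. Of the named genes not called, 3 changed sign. Without E11.5 replicate 1 Foxl2 changed by -0.29, and without E11.5 replicate 2 Amh changed by -0.36 and Mitf by 0.36. The 913 called genes became 184 with cultured XY replicates 1 and 2 averaged, 381 when only the libraries compared were fitted, and 279 to 1467 without 1 library. The 422 higher genes became 737 after quantile normalization, 685 without the 50 most abundant genes, 139 on averaging, 237 with only the libraries compared, and 183 to 473 without 1 library. The 491 lower genes became 318 without the 50 most abundant genes, 45 on averaging, 144 with only the libraries compared, and 88 to 994 without 1 library. The 215 interactions became 34 after median-of-ratios scaling, 53 after quantile normalization, 42 without the 50 most abundant genes, 8 on averaging, 22 with only the libraries compared, 59 without the variance trend, and 14 to 705 without 1 library.

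The replicate block gave 2578 calls, 746 higher and 1832 lower, and 1751 interactions. Deviations of same-numbered samples correlated at 0.10 and 0.05 over 6667 genes, and those of replicates 1 and 2 crossed at -0.10 and -0.05. With 2 E11.5 libraries the deviations mirror each other, so this cannot decide whether the numbers pair the samples. The labels state no pairs, and the calls reported here are from the fit without the block. Of 131 named calls, averaging kept 62, leaving out E11.5 XY replicate 1 kept 63 and replicate 2 kept 76. Leaving out cultured XY replicate 1, 2 or 3 kept 77, 82 and 121, and the 3 scalings kept 116 to 124. Fitting only the libraries compared kept 84, and the fit without the variance trend kept 91. At an unadjusted p below 0.05, 3757 members differed. The cause of these shifts was not tested. Depth is unknown, which limits low genes most.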

Other observations

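A list of 24 genes of selenoproteins, which carry selenocysteine, was drawn up after these values were seen. Of 20 members 1 was higher and 3 were lower in limma, with a median of -0.13 beside -0.11 for all members. Sepw1 (selenoprotein W) had 197, 183 and 179.7 TPM in culture and 395 and 373 TPM at E11.5 and fell by 1.04 ± 0.10 (adjusted p = 0.000109, and 0.0013 with cultured replicates 1 and 2 averaged). In XX it changed by -1.37 ± 0.11. 2700094K13Rik (selenoprotein H) had 83.2, 85.6 and 93.5 TPM in culture and 203 and 252 TPM at E11.5 and fell by 1.36 ± 0.15 (adjusted p = 0.000295), with -1.13 ± 0.16 in XX. Gpx1, a glutathione peroxidase, had 123, 129.6 and 119 TPM in culture and 225 and 209.9 TPM at E11.5 and fell by 0.81 ± 0.12 (adjusted p = 0.00337), with -1.10 ± 0.14 in XX.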
